A study of Mus musculus with 12 samples.

Results

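The epithelial sodium channel and aldosterone pathway was followed through 8 genes in RNA sequencing of cells sorted from mouse kidney cortex. The genes were chosen by name from the deposited gene counts: Scnn1a, Scnn1b and Scnn1g for the channel subunits, Nr3c2 for the mineralocorticoid receptor, Hsd11b2, Sgk1, Nedd4l and Prss8. All 8 were found among the 23378 genes of the table and all 8 passed the filter on low counts, which kept 14180 genes. Every mouse was of strain C57BL/6 and of the genetic model nNosCreERT2-mTmG, in which expression of neuronal nitric oxide synthase drives an inducible Cre that switches a membrane reporter from red tdTomato to green GFP. Green cells were collected as macula densa cells, a plaque of tubule cells that sense salt where the thick ascending limb touches its own glomerulus. The brightest red cells were collected as control cells, meant by the labels to stand for distal tubule and collecting duct epithelium, so both populations carried the same alleles. Mice received, over 14 days, either control diet or a low salt diet together with enalapril, an inhibitor of angiotensin-converting enzyme, in drinking water at 150 mg/L. There were 2 macula densa libraries and 4 control-cell libraries on each diet. The labels do not say whether replicates came from separate animals or from pooled ones, so the p-values measure the spread between these libraries, part of which may be technical.

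The epithelial sodium channel is assembled from α, β and γ subunits, encoded by Scnn1a, Scnn1b and Scnn1g, and sets the final uptake of sodium in the connecting tubule and collecting duct. Aldosterone reaches the mineralocorticoid receptor, which cortisol and corticosterone would otherwise occupy, because the enzyme encoded by Hsd11b2 inactivates those glucocorticoids inside the cell. The receptor induces the kinase Sgk1, Sgk1 phosphorylates the ubiquitin ligase Nedd4l and so slows removal of the channel from the membrane, and Prss8 encodes prostasin, a membrane protease that activates the channel.

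Expression is given as CPM, counts relative to the library total after scaling by trimmed means of M values, and each error is the standard deviation (SD) between libraries. Tests were edgeR quasi-likelihood tests over all 14180 genes with Benjamini-Hochberg adjustment, and a gene is called when its adjusted p is under 0.05. Totals per library ran from 4259020 to 14856542 counts, of which the ribosomal RNA locus Gm42418 took 53.5% to 65.0%, and 3 counts were worth 0.231 to 0.734 CPM. The labels were checked on Nos1, at 100 to 232 CPM in macula densa libraries and at 0.109 to 0.734 CPM in control-cell libraries. Pappa2 ran from 228 to 774 CPM against 0 to 1.22 CPM. Slc12a1, the sodium entry route of the thick ascending limb, ran from 1769 to 2026 CPM against 41.8 to 430 CPM. Ren1 in control cells was at 1.88 to 6.19 CPM on the control diet and 42.7 to 135 CPM on low salt with enalapril.

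The control cells held more than distal epithelium. The summed level of 9 endothelium markers ran from 49.8 to 1607 CPM in control-cell libraries and from 14.3 to 175 CPM in macula densa libraries, where Plvap was at 0 in both libraries on low salt with enalapril. The sum of 7 podocyte markers ran from 43.7 to 1352 CPM and from 19.2 to 153 CPM. The markers of principal cells differed among themselves: Aqp2, the vasopressin-regulated water channel, was at 47.5 to 252 CPM in control cells and 1.53 to 9.75 CPM in macula densa cells, while the transcription factor Tfcp2l1 was at 50.6 to 426 CPM and 324 to 498 CPM. Of the 10 principal cell markers, 8 had a lower median in macula densa cells, and 5 were lower in every macula densa library than in every control-cell library. How many of all genes separate in this way is not given here, so these counts describe the markers alone. Control-cell replicate 4 on the control diet stood apart, with the lowest endothelium and podocyte sums of the control cells (49.8 and 43.7 CPM) and the highest sums of connecting tubule, principal cell and intercalated cell markers (1099, 1296 and 415 CPM). The averaged calls, and some other values of the 8 genes, are given with and without it. In bulk samples such as these, fewer cells of a type and less RNA per cell cannot be told apart.

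Promoter sequences are shown for the neighbouring subunit genes that moved together and for the kinase gene that followed a different pattern among control cells. RefSeq promoter windows of mouse build GRCm38.p6 matched 4 of the 8 genes: Scnn1g, Scnn1b, Nr3c2 and Sgk1, the last with 6 annotated starts. Each line gives the 250 bases before an annotated start on the plus strand, 5′ to 3′. The lines are chr7:121734229-121734478 for Scnn1g, chr7:121864788-121865037 for Scnn1b and chr10:21993640-21993889 for the Sgk1 start at 21993890. Capitals mark the GC box (GGGCGG or its complement CCGCCC) in the channel genes and the steroid receptor palindrome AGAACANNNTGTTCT in Sgk1, whose window was picked from the 6 because it alone holds that palindrome.
Scnn1g: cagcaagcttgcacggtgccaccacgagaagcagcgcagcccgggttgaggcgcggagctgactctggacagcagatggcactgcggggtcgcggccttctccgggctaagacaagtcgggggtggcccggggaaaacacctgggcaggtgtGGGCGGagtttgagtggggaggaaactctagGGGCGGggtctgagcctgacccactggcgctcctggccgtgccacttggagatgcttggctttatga
Scnn1b: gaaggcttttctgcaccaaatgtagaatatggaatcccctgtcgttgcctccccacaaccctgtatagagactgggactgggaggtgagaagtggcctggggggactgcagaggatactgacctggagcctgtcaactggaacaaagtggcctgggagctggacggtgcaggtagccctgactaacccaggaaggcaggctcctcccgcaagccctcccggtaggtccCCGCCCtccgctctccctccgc
Sgk1: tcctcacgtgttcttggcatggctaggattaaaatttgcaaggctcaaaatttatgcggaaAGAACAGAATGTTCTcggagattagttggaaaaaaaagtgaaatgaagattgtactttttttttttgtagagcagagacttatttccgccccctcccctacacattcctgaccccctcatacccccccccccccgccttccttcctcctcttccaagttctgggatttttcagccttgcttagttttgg
Over the whole windows, which run on past the start, Scnn1g held 2 GC boxes, 98 and 67 bases before the start, and Scnn1b held 1, 22 bases before it. GC boxes were not particular to the channel genes: the Sgk1 window shown also holds 1, in lower case, 104 bases before the start, another Sgk1 window holds 4, and the Nr3c2 window holds 3. A GC box on either strand was present in 35.7% of all 32851 promoter windows. The palindrome of Sgk1 began 189 bases before the start, and 3 of the 32851 windows held a full match (0.00913%). Either arm of it alone, AGAACA or TGTTCT, was in 19.0% of windows and in neither the Scnn1g nor the Scnn1b window. The full palindrome contains both arms. These matches describe letters in a window and were not tested for binding.

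Macula densa cells differed from control cells in 4 of the 8 genes when the comparison was averaged over both diets, and all 4 were lower: Scnn1b, Scnn1g, Hsd11b2 and Sgk1. The fitted differences were 10.2-fold, 8.33-fold, 11.5-fold and 18.01-fold. Of all genes tested, 21.3% were called in this comparison and 13.9% were called lower in macula densa cells. The median log2 fold change was -1.84 over the 8 genes and -0.06 over all genes tested. Scnn1a, Nr3c2, Nedd4l and Prss8 were detected in every library of both populations and did not pass the threshold. On control diet alone 2 of the 8 were called, Scnn1b and Hsd11b2, both lower, against 6.61% of all genes called and 3.92% called lower. On low salt with enalapril alone 1 of the 8 was called, Sgk1, lower, against 7.27% of all genes called and 4.13% called lower. Without control-cell replicate 4 on the control diet, 4 of the 8 passed on each diet, where 17.7% and 13.5% of all genes were called on the control diet and on low salt with enalapril. Without macula densa replicate 1, macula densa replicate 2 or control-cell replicate 3 on the control diet, 0 passed on the control diet, against 1.61%, 0.755% and 2.94% of all genes, and 0 passed on low salt with enalapril when macula densa replicate 2 of that diet was left out, against 1.22%. Without control-cell replicate 3 on low salt with enalapril or control-cell replicate 1 on the control diet, 3 passed on low salt with enalapril, against 7.40% and 7.17%. Scaling by library totals alone left the counts of called members at 2, 1 and 4, while it moved the median of all genes in the averaged comparison from -0.06 to 0.14 and the share of calls that were lower from 64.9% to 44.2%.

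**Figure D1:**
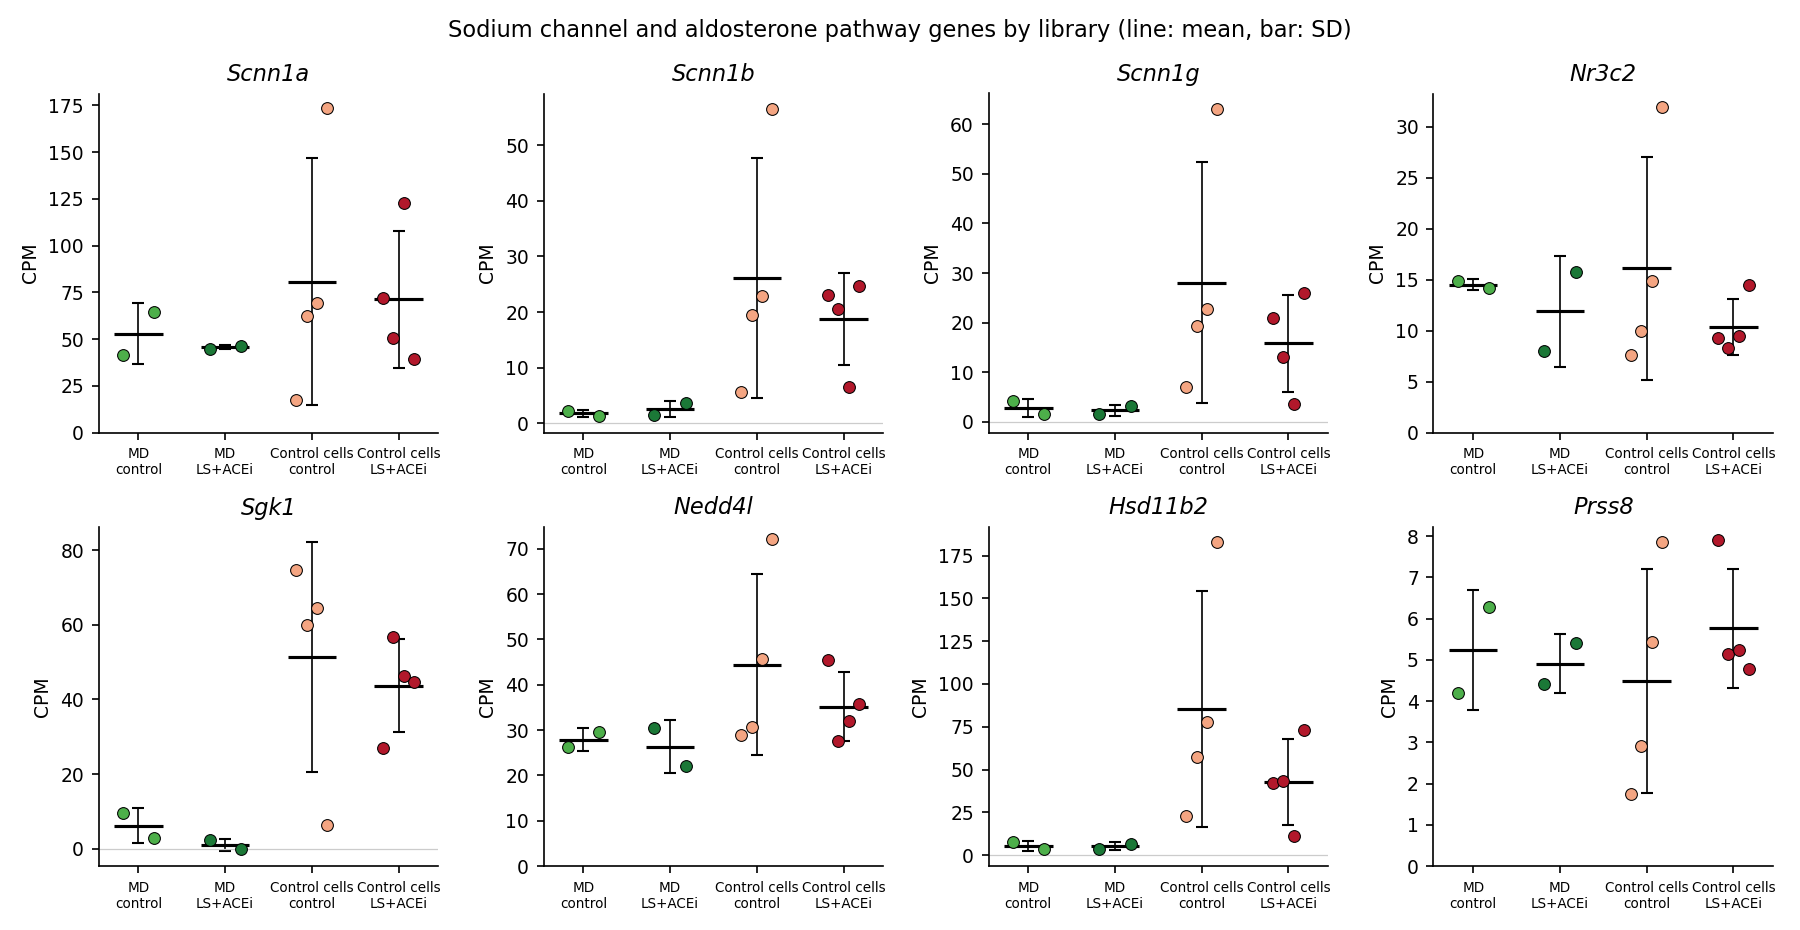
CPM (vertical axes, starting at or just under 0) of the 8 genes in each of the 12 libraries, by cell population and diet (MD, macula densa; LS+ACEi, low salt with enalapril). Points are libraries, lines are group means and bars are SD. Scnn1b and Hsd11b2 lie lower in all 4 macula densa libraries than in all 8 control-cell libraries, while Scnn1a, Nr3c2 and Prss8 overlap.

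The channel subunits did not share 1 pattern. Scnn1a (chromosome 6, 125320659 to 125344943 in GRCm38) encodes the α subunit, without which the channel does not conduct well. In macula densa cells it measured 41.5 and 64.4 CPM on the control diet and 44.8 and 46.4 CPM on low salt with enalapril. In control cells it measured 17.6, 62.6, 69.3 and 173 CPM on the control diet and 72.1, 50.7, 123 and 39.6 CPM on low salt with enalapril. Each macula densa value lay inside the range of the control cells. The averaged log2 fold change was -0.62, its standard error 0.48, with a 95% interval of -1.66 to 0.41 and an edgeR adjusted p of 0.386. Without control-cell replicate 4 on the control diet it was -0.28 averaged, and on that diet alone it moved from -0.61 to 0.0869.

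Scnn1b (chromosome 7, 121865038 to 121918514) encodes the β subunit. It measured 2.26 and 1.38 CPM in macula densa cells on the control diet and 1.53 and 3.61 CPM on low salt with enalapril, from 8 to 22 counts per library. Control cells held 5.69, 19.4, 22.9 and 56.5 CPM on the control diet and 23.1, 20.6, 6.51 and 24.7 CPM on low salt with enalapril. No macula densa library reached the lowest control-cell library. Averaged over diets the log2 fold change was -3.35 (standard error 0.62, edgeR adjusted p 0.0033), and it was -3.00 (adjusted p 0.00080) without control-cell replicate 4 on the control diet. On control diet it was -3.85 (adjusted p 0.0243) and on low salt with enalapril -2.85 (adjusted p 0.0660). Without that control-cell replicate the control diet value was -3.15 (edgeR adjusted p 0.0099).

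Scnn1g (chromosome 7, 121734479 to 121768475) encodes the γ subunit and lies 96562 bases from Scnn1b on the same strand. It measured 4.10 and 1.47 CPM in macula densa cells on the control diet and 1.53 and 3.12 CPM on low salt with enalapril, from 8 to 40 counts per library. In control cells the values were 6.998, 19.4, 22.8 and 63.1 CPM on the control diet and 21.0, 12.98, 3.57 and 25.9 CPM on low salt with enalapril. The populations overlapped through control-cell replicate 3 on low salt with enalapril alone, which was lower than macula densa replicate 1 on the control diet. The averaged log2 fold change was -3.06 (standard error 0.68, edgeR adjusted p 0.0084), and it was -2.68 (adjusted p 0.0034) without control-cell replicate 4 on the control diet. Without macula densa replicate 2 on the control diet the adjusted p was 0.0509, and with limma voom it was 0.0502.

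Per kilobase of exon, Scnn1a made up 81.9%, 93.9%, 90.8% and 82.3% of the summed subunit transcripts in the 4 macula densa libraries. In control cells its share was 48.6%, 52.2%, 50.7% and 49.7% on the control diet and 52.5%, 50.2%, 89.0% and 34.7% on low salt with enalapril. The library at 89.0%, replicate 3, had a share like those of macula densa cells, and its macula densa marker sum was 15.1 CPM, against at least 539 CPM in every macula densa library. Its thick ascending limb sum, 913 CPM, was the highest of its group, and its principal cell sum, 318 CPM, the lowest of the control cells. Control-cell replicates 3 and 4 on the control diet had thick ascending limb sums of 924 and 1390 CPM at shares of 50.7% and 49.7%. The part of cell mixture in these shares was not tested. The ratio of Scnn1a to Scnn1b per kilobase ran from 8.20 to 29.6 in macula densa cells and from 1.02 to 12.004 in control cells. Scnn1b and Scnn1g stayed closer to each other, at a per-kilobase ratio of 0.625 to 1.32 in macula densa cells and 0.923 to 2.07 in control cells. These ratios were formed after the values had been seen and are given without a test.

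**Figure D2:**
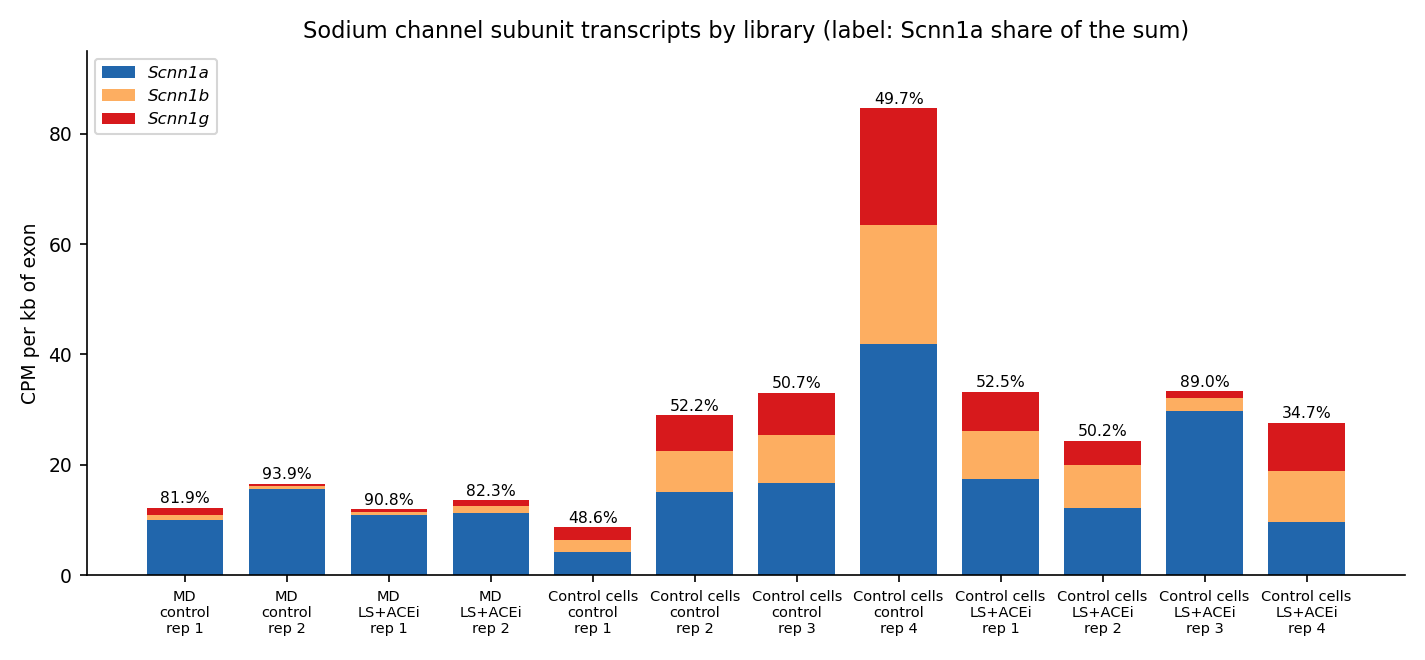
CPM per kilobase of exon (vertical axis from 0) of Scnn1a, Scnn1b and Scnn1g, stacked for each of the 12 libraries; the label over each bar is the share of Scnn1a. The share is 81.9% to 93.9% in macula densa libraries, and control-cell replicate 3 on low salt with enalapril reaches 89.0%.

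The mineralocorticoid receptor was detected in every library, with no difference between populations past the threshold. Nr3c2 (chromosome 8, 76899442 to 77245012) had 14.9 and 14.2 CPM in macula densa cells on the control diet and 8.05 and 15.7 CPM on low salt with enalapril. Control cells had 7.65, 9.96, 14.9 and 31.9 CPM on the control diet and 9.30, 8.32, 9.45 and 14.4 CPM on low salt with enalapril. All macula densa values lay within the range of the control cells. The averaged log2 fold change was 0.02 with a 95% interval of -0.73 to 0.78 (edgeR adjusted p 0.976). Differences of either sign inside that interval are therefore not excluded. Without control-cell replicate 4 on the control diet it was 0.31, and its sign changed with no filter and with some libraries left out. An antisense gene over Nr3c2 exons, Gm10649, reached at most 0.307 CPM in any library.

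Hsd11b2, which protects the receptor from glucocorticoids, was low in macula densa cells. The gene (chromosome 8, 105518755 to 105523988) measured 7.39 and 3.42 CPM there on the control diet and 3.45 and 6.73 CPM on low salt with enalapril. In control cells it measured 22.7, 57.5, 78.0 and 183 CPM on the control diet and 42.04, 43.6, 11.3 and 72.8 CPM on low salt with enalapril. The populations did not overlap. Averaged over diets the log2 fold change was -3.52 (standard error 0.64, edgeR adjusted p 0.0031), and -3.18 (adjusted p 0.00084) without control-cell replicate 4 on the control diet. On control diet it was -3.98 (adjusted p 0.0249) and on low salt with enalapril -3.05 (adjusted p 0.0589). Without that control-cell replicate the control diet value was -3.30 (edgeR adjusted p 0.0107).

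Set per kilobase of exon, the receptor and the enzyme stood in different proportions in the 2 populations. On control diet macula densa cells held 2.24 ± 0.0766 CPM per kilobase of Nr3c2 and 2.94 ± 1.52 of Hsd11b2 (SD, n = 2), levels that did not differ beyond their spread. Control cells on the same diet held 2.49 ± 1.69 of Nr3c2 and 46.3 ± 37.4 of Hsd11b2 (SD, n = 4). Replicate 4 of that group held 4.93 and 99.3, while the others held 1.18 to 2.29 and 12.4 to 42.4.

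Sgk1, the kinase that aldosterone and glucocorticoids induce, had the largest fitted difference of the 8 genes averaged and on low salt with enalapril, but not on the control diet, where those of Hsd11b2, Scnn1b and Scnn1g were larger. It lies on chromosome 10 from 21882184 to 21999903. Macula densa cells held 9.64 and 2.85 CPM on the control diet, and 2.30 and 0 CPM on low salt with enalapril, where the second library had 0 counts. Control cells held 74.8, 60.0, 64.4 and 6.30 CPM on the control diet and 26.9, 56.8, 46.2 and 44.8 CPM on low salt with enalapril. The populations overlapped only through control-cell replicate 4 on the control diet, which was lower than macula densa replicate 1 on that diet. The averaged log2 fold change was -4.17 (standard error 0.77, edgeR adjusted p 0.0034), and -4.36 (adjusted p 0.00010) without that control-cell library. On control diet it was -3.05 (adjusted p 0.0787) with the library and -3.42 (adjusted p 0.0050) without it. On low salt with enalapril it was -5.29 (adjusted p 0.0225), a fitted value that leans on the library at 0, since it was -4.26 (adjusted p 0.150) without that library, and it was not called with limma voom (adjusted p 0.263). Without macula densa replicate 1, which leaves the library at 0 alone in its group, the fit gave -11.6 on that diet and -7.30 averaged, neither of which is a bound.

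Endothelium and podocyte markers moved with Sgk1 across the libraries. The 12 libraries gave a Pearson correlation of log2 values of 0.93 between Sgk1 and the endothelium sum and 0.89 with the podocyte sum. Within the 8 control-cell libraries these were 0.92 and 0.90, and without replicate 4 on the control diet, 0.67 and 0.83. Other marker sums moved with Sgk1 too. Over the 12 libraries the values were 0.91 for fibroblast and mesangium, 0.83 for smooth muscle and renin cells and 0.75 for leukocytes. Within the 8 control-cell libraries those were 0.76, 0.27 and 0.54, and without that replicate 0.32, -0.05 and 0.55. Sums of connecting tubule, distal convoluted tubule, intercalated cell, principal cell and thick ascending limb markers moved the other way in control cells. In that order they were -0.90, -0.83, -0.82, -0.75 and -0.65 in the 8 libraries. Without that replicate they were -0.46, -0.47, -0.55, -0.08 and -0.43. Over the 12 libraries they were -0.75, -0.79, 0.34, -0.15 and -0.76. Within control cells the proximal tubule and macula densa sums gave 0.22 and 0.26. Scnn1b, Scnn1g and Hsd11b2 had correlations of 0.55, 0.55 and 0.60 with the endothelium sum over the 12 libraries. Within the 8 control-cell libraries their values were -0.47, -0.37 and -0.33. Without replicate 4 on the control diet they were 0.14, 0.39 and 0.53, so the negative sign rested on that library. Points of these correlations share a library, its depth and its mixture of cells, and no p is attached. The part of endothelial or podocyte RNA in the Sgk1 difference was not tested.

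**Figure D3:**
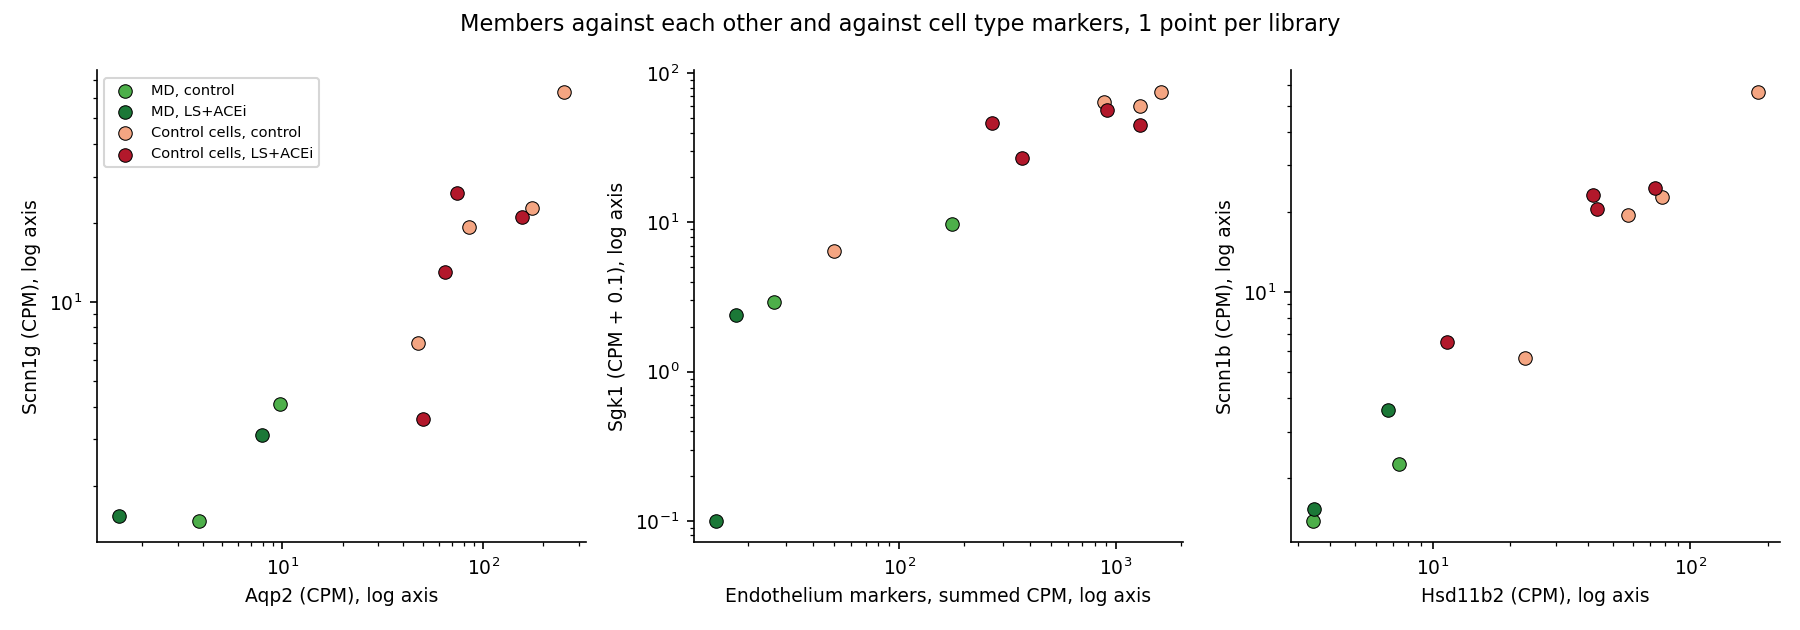
Left, Scnn1g against Aqp2; middle, Sgk1 (0.1 CPM added so that the library at 0 can be drawn) against the sum of 9 endothelium markers; right, Scnn1b against Hsd11b2; all in CPM on log axes with 1 point per library. Sgk1 falls with the endothelium sum down to 6.30 CPM in the control-cell library whose sum is 49.8 CPM, while Scnn1g and Scnn1b are at their highest, 63.1 and 56.5 CPM, in that same library.

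Nedd4l and Prss8, which act on the channel protein, showed smaller differences. Nedd4l (chromosome 18, 64887705 to 65217828) measured 26.2 and 29.7 CPM in macula densa cells on the control diet and 30.5 and 22.1 CPM on low salt with enalapril. Control cells held 29.0, 30.7, 45.7 and 72.2 CPM on the control diet and 45.4, 27.7, 31.9 and 35.8 CPM on low salt with enalapril. The lowest values were those of macula densa cells, and the populations overlapped. The averaged log2 fold change was -0.55 with a 95% interval of -1.10 to 0.003 and an edgeR adjusted p of 0.147.

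Prss8 (chromosome 7, 127925716 to 127930104, minus strand) rested on 16 to 103 counts per library. It measured 4.21 and 6.27 CPM in macula densa cells on the control diet and 4.41 and 5.41 CPM on low salt with enalapril. Control cells held 1.75, 2.91, 5.43 and 7.85 CPM on the control diet and 7.92, 5.14, 5.25 and 4.78 CPM on low salt with enalapril, so that every macula densa value lay within their range. The averaged log2 fold change was -0.01 with a 95% interval of -0.76 to 0.74 (edgeR adjusted p 0.99). Exons of Prss8 overlap those of Kat8 on the opposite strand, which measured 2.11 to 5.33 CPM, and no source says that strand was used in counting, so the values of Prss8 are uncertain.

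**Figure D4:**
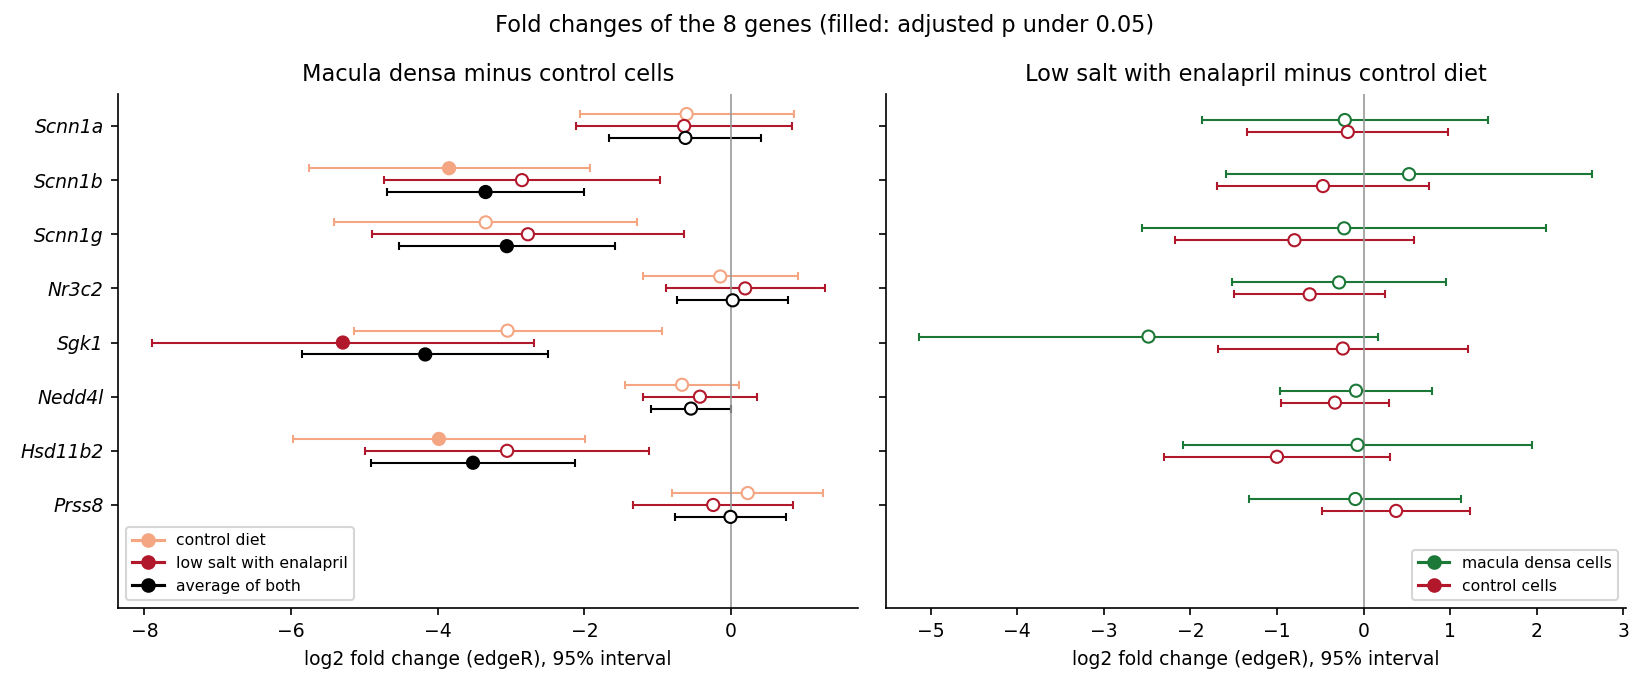
Log2 fold changes of the 8 genes with 95% intervals from the edgeR fit: left, macula densa minus control cells on each diet and averaged; right, low salt with enalapril minus control diet in each population. Filled symbols have an adjusted p under 0.05; the averaged calls are Scnn1b, Scnn1g, Sgk1 and Hsd11b2, and no diet symbol is filled.

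The treatment is one that raises renin and, through enalapril, limits formation of angiotensin II, the main stimulus of aldosterone besides potassium. In macula densa cells 0 of the 8 genes passed between low salt with enalapril and control diet by edgeR, against 0% of all genes called. At an unadjusted p under 0.05 there were 0 of the 8 and 1594 of 14180 genes. In control cells 0 of the 8 passed, against 0.00705% of all genes called. There 0 of the 8 and 914 of 14180 genes had an unadjusted p under 0.05. The test of the difference between both diet effects also called 0 of the 8 and 0% of all genes. Under 0.05 unadjusted were 0 of the 8 and 997 of 14180 genes. With only 8 genes, a count of 0 is near these shares. The DESeq2 Wald test and limma voom called 0 of the 8 in each of these comparisons. By DESeq2 1 of the 8 had an unadjusted p under 0.05 in macula densa cells, where the count over all genes is not given here.

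The intervals of the diet comparisons were wide. Hsd11b2 in control cells averaged 85.2 ± 68.8 CPM on the control diet and 42.4 ± 25.1 CPM on low salt with enalapril (SD, n = 4), a log2 fold change of -0.9997 with a 95% interval of -2.31 to 0.31 and an edgeR adjusted p of 0.921. Without replicate 4 on the control diet it was -0.31. Scnn1g in control cells averaged 28.1 ± 24.3 CPM and 15.9 ± 9.78 CPM (SD, n = 4), a log2 fold change of -0.80 with an interval of -2.18 to 0.58, and it was -0.016 without that library. The fitted values of Scnn1b and Nr3c2 in control cells, -0.47 and -0.62, were 0.24 and -0.0489 without it. Scnn1a had intervals of -1.35 to 0.98 in control cells, where its value moved from -0.18 to 0.51 without that library, and -1.87 to 1.44 in macula densa cells. Sgk1 had the largest diet value, in macula densa cells, where the mean was 6.25 ± 4.803 CPM on the control diet and 1.15 ± 1.63 CPM on low salt with enalapril (SD, n = 2). The fit gave it a value of -2.48 on the log2 scale, with a 95% interval of -5.13 to 0.16 and an edgeR adjusted p of 0.474. It was -1.41 without macula densa replicate 1 on the control diet, -1.49 without replicate 2 on low salt with enalapril (the library at 0) and -8.85, which is no bound, without replicate 1 on that diet. Of these libraries, macula densa replicate 1 on the control diet alone exceeded any control-cell library, replicate 4 on that diet. Macula densa replicate 1 on the control diet also had endothelium and podocyte sums of 175 and 153 CPM. The other macula densa libraries had 14.3 to 26.4 and 19.2 to 35.4 CPM. The part of those cells in this diet value was not tested.

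Scnn1b, Scnn1g and Hsd11b2 followed each other closely from library to library. Over the 12 libraries the Pearson correlation of log2 CPM was 0.988 between Scnn1g and Hsd11b2, 0.978 between Scnn1b and Hsd11b2 and 0.970 between Scnn1b and Scnn1g. Within the 8 control-cell libraries these were 0.981, 0.931 and 0.952, and without replicate 4 on the control diet 0.967, 0.886 and 0.921. Scnn1a had correlations of 0.41 with Scnn1b and 0.33 with Scnn1g over the 12 libraries. Among 6688 genes with a mean of at least 5 CPM, the pattern most like that of Scnn1b was that of Kit (0.980), followed by Hsd11b2, Ptgs1 and Scnn1g. Kit, a receptor tyrosine kinase, is among the intercalated cell markers used here. Scnn1b had correlations of 0.91 with the intercalated cell sum and 0.59 with the principal cell sum over the 12 libraries. Within the 8 control-cell libraries they were 0.80 and 0.85, and without replicate 4 on the control diet 0.65 and 0.74. In macula densa libraries the principal cell sum had a median of 477 CPM, where Tfcp2l1 alone had a median of 418 CPM. Tfcp2l1 was higher there than in control cells (median 138 CPM), while Aqp2 was lower, so that sum is a mixed measure of principal cells. For Scnn1g the nearest were Hsd11b2, Scnn1b, Mcoln3, Ptgs1 and Aqp3, the last a water and glycerol channel of principal cells (0.953). For Hsd11b2 they were Scnn1g, Scnn1b, Ptgs1, Apela and Kit. Scnn1a had a different set, Ppargc1a, Gapdh, Atp6v0e, Defb1 and Hk1, at 0.906 to 0.891, and Nr3c2 another, Slc33a1, Chchd10, Eno1, Poldip2 and Uqcrb, at 0.921 to 0.874. Libraries share depth and cell mixture, and these correlations are a description.

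Genes around the channel were taken from lists of its regulators, proteases, targets and transport partners, compared as macula densa minus control cells averaged over both diets, where 7.48% of all genes were called higher and 13.9% lower. In the list of hormone access and the receptor complex, 1 of 12 genes was called higher and 1 lower, with a median log2 fold change of 0.05, and the 2 calls are a smaller share than the 21.3% over all genes. Fkbp4, a co-chaperone of steroid receptors, rose by 0.65 (edgeR adjusted p 0.0359) and Ell, an elongation factor, fell by 0.66 (adjusted p 0.0391). These calls held in 10 of 21 and 5 of 20 alternatives. The chaperones Hsp90ab1 and Hsp90b1, at log2 fold changes of 0.29 and 0.33, did not pass.

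Among kinases and ubiquitin enzymes that act on the channel, 5 of 23 were called higher and 1 lower, with a median of 0.03, against 7.48% and 13.9% over all genes. Pik3r1, a regulatory subunit of phosphoinositide 3-kinase, had a median of 136 CPM in macula densa cells and 34.1 CPM in control cells (log2 fold change 1.89, standard error 0.18, edgeR adjusted p 4.15e-05). Wnk1, a kinase that regulates sodium and potassium transport, had medians of 556 and 167 CPM and a log2 fold change of 1.59 (adjusted p 0.00052). Usp2, a deubiquitinating enzyme that can act on the channel, rose by 1.95 (adjusted p 0.0193), and Sgk2, a relative of Sgk1, rose by 1.65 (adjusted p 0.0118), from a median of 2.88 CPM to 9.13 CPM. Uchl3, another deubiquitinating enzyme, rose by 1.20, and Cnksr3, an aldosterone-induced scaffold that joins Nedd4l and Sgk1, fell by 0.87 with adjusted p 0.0331; both were named after their values were seen. Calls of Pik3r1 and Wnk1 held in all 21 alternatives, those of Usp2, Sgk2 and Uchl3 in 18 of 21, 18 of 20 and 19 of 20, and that of Cnksr3 in 11 of 21. Nedd4, the relative of Nedd4l, did not pass (log2 fold change -0.03, adjusted p 0.919).

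Of 11 tested channel proteases and inhibitors, 2 were called higher and 3 lower, with a median of -0.29, again against 7.48% and 13.9%. Klk1, tissue kallikrein, had a median of 314 CPM in macula densa cells and 68.1 CPM in control cells and rose by 1.83 (edgeR adjusted p 0.0308). Tmprss2, a transmembrane protease named after its values were seen, had medians of 83.8 and 27.2 CPM and rose by 1.37 (adjusted p 0.0315). Their calls held in 12 and 13 of 21 alternatives. Plat, tissue plasminogen activator, had a median of 2.79 CPM in macula densa cells and 170 CPM in control cells (log2 fold change -5.37, adjusted p 0.0055). Serpine2, an inhibitor of prostasin, fell by 2.06 (adjusted p 0.0181). The Plat call held in 20 of 21 alternatives, lost with limma voom, and that of Serpine2 in 17 of 20. Plau and Furin, which cut the channel or act beside it, did not pass, at log2 fold changes of -0.35 and 0.25. Plat is also a product of endothelium, whose markers summed to 49.8 to 1607 CPM in control cells, and the part of those cells was not tested.

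In the list of transcripts that mineralocorticoid or glucocorticoid hormones induce, 4 of 15 were called lower in macula densa cells and 0 higher, against 13.9% and 7.48% of all genes, with a median of -0.97. Dusp1, a phosphatase of MAP kinases, had a median of 4.81 CPM against 19.9 CPM and a log2 fold change of -2.31 (edgeR adjusted p 0.0020), held in all 21 alternatives. Cdkn1a, an inhibitor of the cell cycle, fell by 3.59 (adjusted p 0.0097), and Edn1, endothelin-1, fell by 2.87 (adjusted p 0.0116) from a median of 2.92 CPM in control cells to 0.204 CPM. The Cdkn1a call was lost with limma voom (adjusted p 0.158). Edn1 is also a product of endothelium, whose markers summed to 49.8 to 1607 CPM in control cells and 14.3 to 175 CPM in macula densa cells, and the part of those cells in this list was not tested. Tsc22d3, which encodes the glucocorticoid-induced leucine zipper, had a median of 3.71 CPM against 12.6 CPM and fell by 1.73 (adjusted p 0.0267); it was named after its values were seen, and its call held in 16 of 21 alternatives, lost with voom and without any 1 of the 4 macula densa libraries (adjusted p 0.0618 to 0.109). Mt2, a metallothionein, was called higher in macula densa cells on the control diet alone (log2 fold change 4.42, adjusted p 0.0396). Between diets 0 of the 15 passed in either population, and 0 passed the test of the difference between both diet effects. In control cells 14 of the 15 had a log2 fold change above 0 on low salt with enalapril, against 45.8% of all genes, with a median of 1.31. Without control-cell replicate 4 on the control diet these were 12 of 15 against 46.9%, with a median of 1.11. The same counts with any other library left out are not given here. How far this shift rests on a single library on low salt with enalapril was therefore not tested. In macula densa cells 6 of 15 were above 0, against 48.5% of all genes, with a median of -0.06. Fkbp5, a steroid-induced co-chaperone, ran from 1.42 to 133 CPM among control-cell libraries, with a median of 6.91 CPM. Among macula densa libraries it ran from 13.6 to 21.5 CPM, with a median of 18.4 CPM. The highest control-cell value thus lay far above the median of its population.

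Among transport partners, 3 of 16 tested genes were called higher and 3 lower, against 7.48% and 13.9% of all genes, with a median of 0.34. The 3 lower genes mark principal cells of the collecting duct. Aqp2 fell by 4.27 (edgeR adjusted p 0.00083) and Aqp3 by 3.73 (adjusted p 0.0017), with both calls held in all 21 alternatives. Fxyd4, a regulator of the sodium pump induced by corticosteroids, had 0 counts in both macula densa libraries on low salt with enalapril. There it was at least 12.4-fold lower against 3 counts over the group. Its averaged call held in 19 of 20 alternatives, lost with limma voom. Fxyd2, the γ subunit of the sodium pump, rose by 1.82 (adjusted p 0.0178), with the call held in 18 of 21 alternatives. It is also expressed in the thick ascending limb, whose 6 markers summed to 2224 to 3983 CPM in macula densa cells and 187 to 1390 CPM in control cells, and the part of those cells was not tested.

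**Figure D5:**
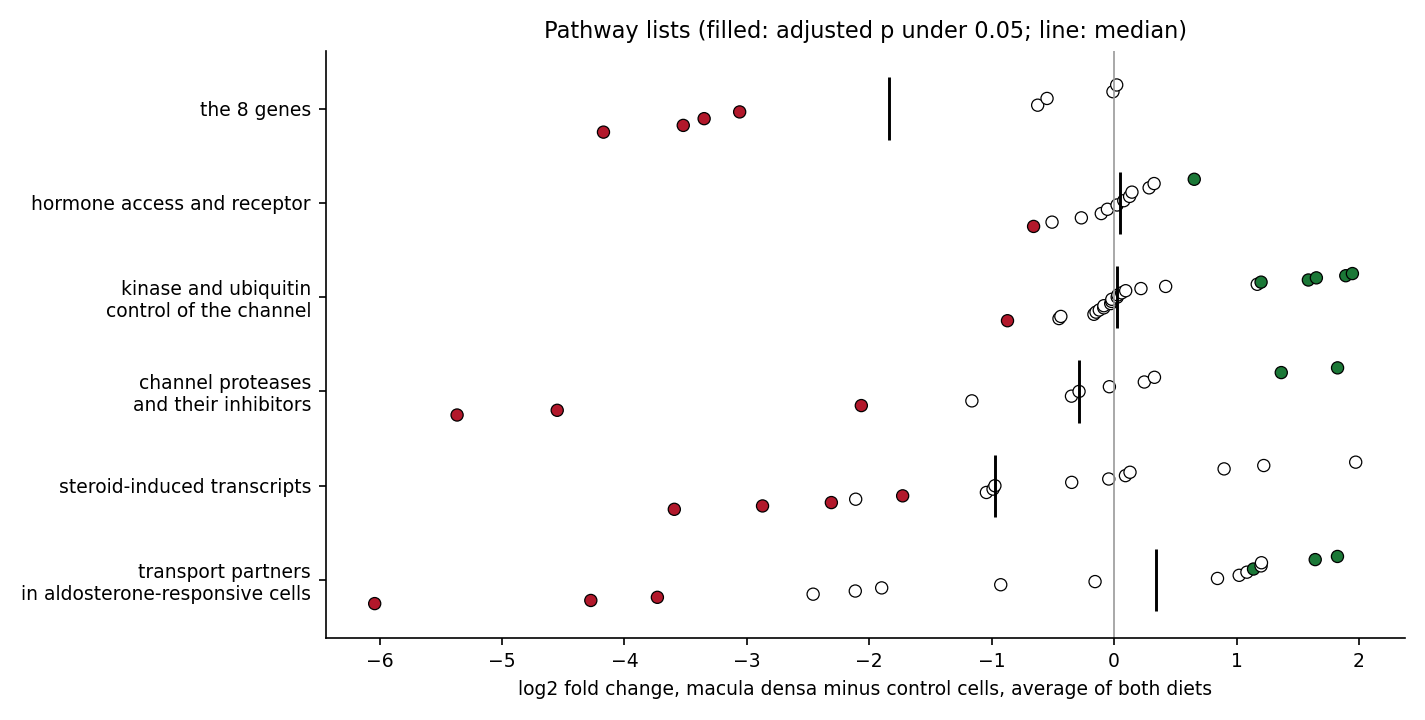
Log2 fold change, macula densa minus control cells averaged over both diets (horizontal axis), of the 8 genes and of the tested genes in each of the 5 pathway lists; 1 point per gene, filled where the adjusted p is under 0.05 (red lower, green higher), with a line at the median. The median of the 8 genes is -1.84 and the list medians lie between -0.97 and 0.34.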

How the data were processed

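The submitters' processing notes name STAR 2.61, Partek and the build mm10, with no role for each; the counting tool and its use of strand are not given in the sources used here. The table the authors deposited holds estimated counts per gene, not normalized (16.1% of values, and 9 of the 96 values of these genes, were not whole), which were rounded. Of its columns, 0 lacked a sample. Coordinates and exon lengths are those of GENCODE M21 (GRCm38). Libraries were grouped by the labels. In edgeR 4.0.16 (R 4.3.3), filterByExpr (count minimum 10, total minimum 15) kept 14180 genes, and a quasi-likelihood model with 1 coefficient for each group was fitted over 12 libraries; the threshold was an adjusted p of 0.05. The fit was tested on simulated data. Correlations used log2 CPM with a prior count of 2. The 8 genes and the pathway lists were chosen with earlier results of these data known. Named list genes were those called in any comparison, at most the 4 with the largest averaged change per list, and up to 2 others per list by mean CPM; some genes that the rules name are not reported here, though list counts and medians include them. Alternatives were DESeq2 1.42.0 size factors and Wald test, limma 3.58.1 voom with sample weights, scaling by totals, all genes with a count, a minimum mean of 5 CPM, totals without mitochondrial genes, Gm42418 and Mir6236, fits of only the groups compared, a replicate block by either number in the labels, and the omission of each library. For the list genes these alternatives were added after seeing the data. Counting error is only part of the error at low counts, since no source used here names molecular identifiers and reads may repeat a molecule.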

Additional observations from a re-analysis of the deposited data

Results flagged for a closer look

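In control cells on low salt with enalapril, Scnn1b in replicate 3 stood far from the others, at a log2 CPM of 2.75 where the other libraries lay between 4.38 and 4.64 (Dixon ratio 0.861). This library also had the lowest Scnn1g and Hsd11b2 of its group, at 3.57 and 11.3 CPM, and the highest Scnn1a, at 123 CPM. In control cells on the control diet, Sgk1 in replicate 4 stood far from the others, at a log2 CPM of 2.71 where the others lay between 5.91 and 6.23 (Dixon ratio 0.91). Scnn1a, Scnn1b, Scnn1g, Hsd11b2, Nr3c2, Nedd4l and Prss8 were at the highest level of their group in that library. Of 16 sets of 4 libraries checked, 2 held such a value, where chance alone flags about 1 in 20, or 0.8 of 16.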

How the results depend on the processing

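The 4 averaged calls kept their direction in all 21 alternatives; Scnn1b, Sgk1 and Hsd11b2 stayed past the threshold in each, and Scnn1g in 19. Counts of the 8 genes called on the control diet and on low salt with enalapril were 2 and 1. They became 4 and 4 with the DESeq2 Wald test and 0 and 3 with only the groups compared. On low salt with enalapril the count became 2 with no filter and 0 with voom. For the 3 and the 2 the counts over all genes are not given here, so they describe the 8 genes alone. The labels carry replicate numbers in the titles and another number in the descriptions, shared by 4 macula densa and 4 control-cell libraries, whose meaning they do not give. Each shared description number joins 1 macula densa and 1 control-cell library of the same diet. Correlations of deviations from the group mean were -0.378 to 0.278 for title numbers. For description numbers they were 0.0753, -0.0371, 0.227 and -0.0183. With 2 macula densa libraries on each diet, their deviations mirror each other, so this check cannot exclude pairing. The main fit used no block, and a pairing by description number remains possible. With the replicate block by title number 0 and 0 of the 8 were called on the 2 diets, and 378, 396 and 1908 of all genes on the control diet, on low salt with enalapril and averaged. With the replicate block by description number 4 and 4 were called, and 2217 and 2192 of all genes. Of all genes, a filter at 5 CPM called 608 on the control diet and 1872 averaged, DESeq2 2000 and 1922 on the 2 diets, voom 1919 and 516, and only the groups compared 468 on the control diet. In the diet comparisons DESeq2 called 93 genes in macula densa cells, 74 in control cells and 13 for the difference, voom 4 in macula densa cells, only the groups compared 105 and 0, and the replicate block by title number 0 in control cells. The causes were not tested.

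Of the uncalled values that changed sign, most were near 0, but Scnn1a on each diet (-0.61 and -0.64) was not. Nor were Scnn1b between diets in control cells (-0.47) and in macula densa cells (0.53), or the Scnn1g difference (0.57). The sign changes under each alternative follow. With voom these were Nr3c2 on the control diet (0.28), Prss8 averaged (0.19), Scnn1g and Hsd11b2 between diets in macula densa cells (0.0341 and 0.0751), Scnn1a and Scnn1b between diets in control cells (0.0289 and 0.14) and the Nr3c2 difference (-0.18). With library totals alone they were Nr3c2 on the control diet (0.0486), Prss8 averaged (0.20) and the Scnn1a difference (0.0539), with no filter Nr3c2 averaged (-0.00863), and at 5 CPM Prss8 averaged (0.0128). With the replicate block by title number they were Scnn1a and Nr3c2 on the control diet (0.12 and 0.49), Prss8 averaged (0.27), and Scnn1a and Sgk1 between diets in control cells (0.13 and 0.19). With the replicate block by description number they were Nr3c2 on the control diet (0.24), Scnn1a on low salt with enalapril (0.0337), Prss8 averaged (0.18) and the differences of Scnn1a, Scnn1g and Nr3c2 (0.38, -0.0424 and -0.19).

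Leaving out 1 library at a time gave 0 to 4 of the 8 genes on each diet, 122 to 2490, 194 to 1894 and 1680 to 3968 of all genes on the control diet, on low salt with enalapril and averaged, and 0 to 1 and 1 to 5 between diets in macula densa and control cells. On control diet Scnn1a ran from -0.93 to 0.0869, Nr3c2 from -0.36 to 0.42 and Prss8 from -0.0565 to 0.63. On low salt with enalapril Nr3c2 ran from -0.41 to 0.55, and averaged, Nr3c2 from -0.27 to 0.31 and Prss8 from -0.18 to 0.19. Between diets in macula densa cells the ranges were -0.55 to 0.0492 for Scnn1a, -0.29 to 0.92 for Scnn1b, -0.90 to 0.62 for Scnn1g, -0.91 to 0.0450 for Nr3c2, -0.40 to 0.0700 for Nedd4l, -0.70 to 0.53 for Hsd11b2 and -0.40 to 0.14 for Prss8. In control cells they were -0.58 to 0.51 for Scnn1a, -0.80 to 0.24 for Scnn1b, -0.61 to 0.0231 for Sgk1 and -0.48 to 0.0089 for Nedd4l. For the difference they were -0.73 to 0.36 for Scnn1a, -0.20 to 1.44 for Scnn1g, -0.28 to 0.67 for Nr3c2 and -0.0945 to 0.40 for Nedd4l. A group left with 1 library is assumed to vary like the others. The Edn1 call was lost with the replicate block by title number (adjusted p 0.0617). Sgk1 averaged ran from -7.30 to -3.63; the former rests on the macula densa library at 0 counts and is no bound. The depth of 8 to 40 counts for Scnn1b and Scnn1g in macula densa libraries limits what can be read between diets there.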
